A study of Mus musculus with 8 samples.

Results

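The comparison described here set ganglia of mice with paw inflammation and G9a deleted in sensory neurons against ganglia of wild-type mice that had no inflammation, so deletion and inflammation differ together between its groups. The group called iKO CFA was mice with floxed Ehmt2 alleles, the gene of G9a, and an inducible Cre recombinase under Avil, a gene of peripheral sensory neurons. They received complete Freund's adjuvant (CFA), a suspension of killed mycobacteria in oil, in the left paw. The group called WT Veh was littermates without Cre that received vehicle in the paw, so they were injected and not untouched. Ganglia of both groups were taken 14 days after injection. The submitters state neither whether WT mice carried floxed alleles nor whether they were given the drug that activates Cre. Avil drives Cre mainly in sensory neurons, so glia, vessels, connective tissue and blood cells of the ganglia are not the cells in which the gene is meant to be deleted. The comparison used 4 of the 8 libraries, 2 of iKO CFA and 2 of WT Veh. Knockout mice given vehicle (iKO Veh) and wild-type mice given CFA (WT CFA), also 2 libraries each, were used to show which differences were already present with only 1 of those changes. Of 25780 genes in each file, 20235 had enough reads to be tested. Separate animals per library were not stated, so a p-value here speaks of the scatter of single libraries, which may be technical.

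Dorsal root ganglia hold the cell bodies of the neurons that carry touch, temperature and pain from body to spinal cord, wrapped in satellite glia and mixed with Schwann cells, vessels, fibroblasts and resident immune cells. G9a places methyl groups on lysine 9 of histone H3, a mark of silenced genes, and is known in sensory neurons for repressing ion channel and receptor genes after nerve injury. CFA causes a long inflammation of the paw, in which nociceptors, the neurons that detect damage, make more of their peptides and transduction channels, and bone marrow releases granulocytes. Total RNA of whole ganglia was read, so the counts mix all of these cells.

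Levels below are CPM, reads of a gene relative to the reads of its library, scaled for depth and composition. Depth was 32694935 and 35516017 reads in the iKO CFA libraries and 26312614 and 29763833 reads in the WT Veh libraries, within 26312614 to 42971823 reads over all 8. No pair of libraries agreed within sampling noise over genes with at least 20 reads. The WT CFA libraries stood apart from each other, with a median difference between replicates of 0.59 on the log2 scale over all genes tested. This difference was 0.20 in iKO CFA, 0.17 in iKO Veh and 0.28 in WT Veh. Reads of mitochondrial genes made up 6.09% and 5.95% in iKO CFA, 1.34% and 1.86% in iKO Veh, 3.94% and 12.1% in WT CFA and 3.57% and 2.76% in WT Veh. Summed levels of 20 genes that mark neurons in general were 19793 and 19579 CPM in iKO CFA and 13859 and 17744 CPM in WT Veh, so neuronal transcripts were abundant in every library of the comparison.

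Ehmt2, the deleted gene, was lower in the knockout libraries. Its level was 45 and 44.2 CPM in iKO CFA, against 74.4 and 65.4 CPM in WT Veh, a log2 fold change of -0.65 ± 0.18 (SE). The adjusted p was 0.0352 in edgeR's quasi-likelihood test, which gave every adjusted p below. In the companion groups it was 34 and 31.6 CPM in iKO Veh and 74.2 and 61.3 CPM in WT CFA, so all 4 knockout libraries lay below all 4 wild-type libraries. The reads count the whole gene, including exons outside the deleted part and cells without Cre, so a remaining level is no measure of remaining G9a protein. The call was lost when any 1 of the iKO CFA, iKO Veh or WT Veh libraries was left out, with log2 fold changes of -0.74 to -0.55 over all settings.

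Trpv1, the heat and capsaicin channel of nociceptors, was higher, and Trpa1, the channel for irritants that is often found in the same neurons, did not pass the test. Trpv1 had 142 and 139 CPM in iKO CFA and 66.7 and 98 CPM in WT Veh, a log2 fold change of 0.77 ± 0.21 with adjusted p = 0.0366. Its levels of 130.4 and 139.6 CPM in iKO Veh and 199 and 182 CPM in WT CFA were also above both WT Veh libraries. Trpa1 had 54.7 and 57.5 CPM in iKO CFA and 40.7 and 58.1 CPM in WT Veh, with a log2 fold change of 0.18 ± 0.26 and adjusted p = 0.656, and these groups overlapped. In iKO Veh it had 87.9 and 74.5 CPM and in WT CFA 124 and 77.2 CPM, all above the iKO CFA libraries. The Trpv1 call was lost with replicate number as a block and without either iKO CFA library, either iKO Veh library or WT Veh replicate 1.

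Over all genes, 2050 genes were higher in iKO CFA than in WT Veh and 1909 were lower, at an adjusted p under 0.05. These were 10.1% and 9.43% of the genes tested, the shares to set each list's counts below against. Of all called genes, 1159 were higher and 1505 lower by more than 1 on the log2 scale. The median log2 fold change over all genes tested was -0.04. Against WT CFA, iKO CFA had 303 genes higher (1.5%) and 42 lower (0.208%), and against iKO Veh it had 8 higher (0.0395%) and 0 lower (0%). These 2 comparisons take the same iKO CFA libraries. Both iKO CFA libraries lay above all 6 other libraries in 1530 genes (7.56%) and below them in 1378 genes (6.81%).

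The number of genes called depended on single libraries of every group. The count was 265 without WT Veh replicate 1 and 1180 without replicate 2. Leaving out an iKO CFA library left 573 or 399 genes, and leaving out an iKO Veh library 2154 or 2145. Leaving out WT CFA replicate 1 or 2, the pair that differed most, gave 8593 and 8609. No gene called with all libraries had the other sign in any of these fits.

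**Figure D1:**
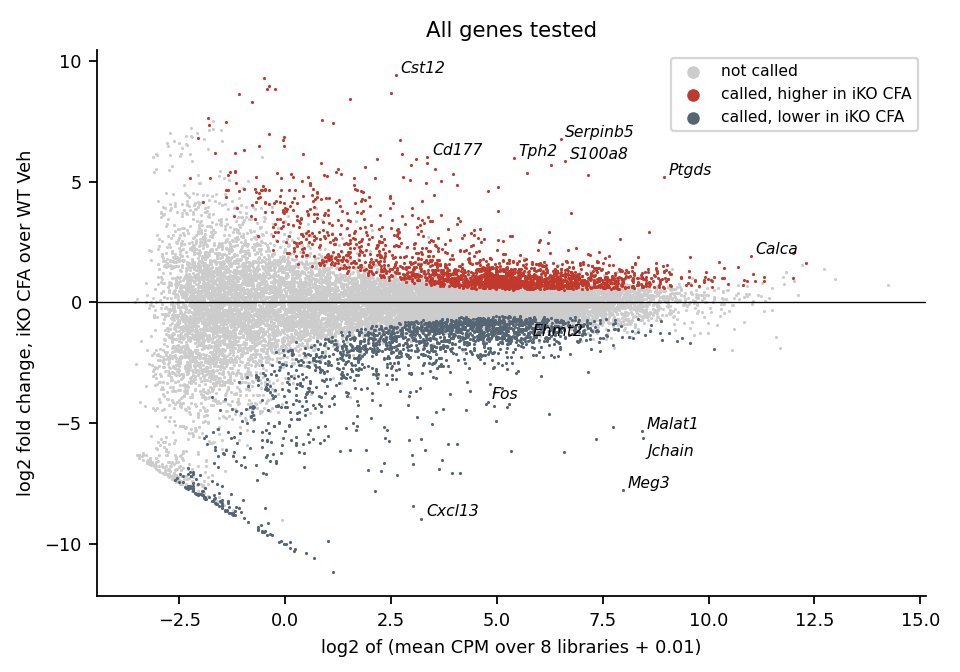
Log2 fold change of iKO CFA over WT Veh (vertical axis) against the log2 mean level over the 8 libraries (horizontal axis) for the 20235 genes tested. Red points are the 2050 genes called higher in iKO CFA, slate points the 1909 called lower and grey points the rest, and labels mark genes described in the text.

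Among the largest fold rises were genes that were on in both knockout groups and nearly silent in both wild-type groups. Cst12, which encodes a cystatin of the reproductive tract, had 12.7 and 13.7 CPM in iKO CFA and 0 and 0.0298 CPM in WT Veh. With 923 reads in iKO CFA and 1 read in WT Veh, the depth-adjusted ratio was 840-fold (95% counting interval 150.4 to 33217). Magea13, of a family expressed in the germ line, had 14.8 and 13.7 CPM in iKO CFA against 0.0335 and 0.0298 CPM in WT Veh, a ratio of 451-fold (124 to 3725) on 990 and 2 reads. These intervals cover counting error only. Crct1, a gene of the skin barrier cluster, had 6.75 and 6.39 CPM in iKO CFA and 0 and 0.0298 CPM in WT Veh, and Nt5el, a gene related to 5'-nucleotidase, 4.34 and 2.38 CPM in iKO CFA and 0.0335 and 0 CPM in WT Veh, with ratios of 416-fold (74.3 to 16465) and 210.2-fold (37.4 to 8340). The WT Veh levels of all 4 genes rest on 1 or 2 reads.

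Serpinb5, a serpin of epithelia known as maspin, reached the highest level of these genes. It had 173 and 150.0 CPM in iKO CFA and 1.57 and 1.43 CPM in WT Veh, a log2 fold change of 6.74 ± 0.32 with adjusted p = 8.36e-05. Tph2, the neuronal enzyme that starts serotonin synthesis, had 78.2 and 83.1 CPM in iKO CFA and 1.24 and 1.31 CPM in WT Veh, 5.98 ± 0.21 on the log2 scale with adjusted p = 1.26e-05. Il1f9, an interleukin 1 family cytokine of epithelia also named IL-36 gamma, had 7.71 and 9.79 CPM in iKO CFA and 0.101 and 0.179 CPM in WT Veh, a log2 fold change of 5.92 ± 0.59 with adjusted p = 0.00123. None of the calls of these 7 genes was lost under any alternative tried.

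In the companion groups all 7 genes were higher in both iKO Veh libraries than in both WT CFA libraries. In iKO Veh, Serpinb5 had 212 and 184 CPM, Tph2 88.6 and 82 CPM, Cst12 10.3 and 12.3 CPM and Magea13 6.67 and 8.55 CPM. In WT CFA, Serpinb5 had 1.34 and 2.36 CPM, Tph2 1.52 and 1.68 CPM, Cst12 0 and 0 CPM and Magea13 0.401 and 0.616 CPM. Crct1 had 5.59 and 4.1 CPM in iKO Veh and 0.214 and 0 CPM in WT CFA, Nt5el 5.0 and 5.54 CPM in iKO Veh and 0.0267 and 0 CPM in WT CFA, and Il1f9 8.46 and 8.75 CPM in iKO Veh and 0.214 and 0.719 CPM in WT CFA. Between iKO CFA and iKO Veh the log2 difference was -0.30 ± 0.24 for Serpinb5, -0.08 ± 0.16 for Tph2, 0.23 ± 0.30 for Cst12 and 0.90 ± 0.28 for Magea13, with adjusted p-values of 0.435, 0.77, 0.645 and 0.105 in that order. None of these passed the threshold.

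The promoters of 3 of these genes are shown because G9a is known to act at promoters, among other regions, and because CpG number separates promoter classes in mammals. They are the 250 bases before and 50 after the start of transcription, taken from RefSeq on build GRCm38.p6, which is not the build of the counts, with each CpG in capitals and each strand read 5′ to 3′.
Cst12, chr2:148789115-148789414, + strand: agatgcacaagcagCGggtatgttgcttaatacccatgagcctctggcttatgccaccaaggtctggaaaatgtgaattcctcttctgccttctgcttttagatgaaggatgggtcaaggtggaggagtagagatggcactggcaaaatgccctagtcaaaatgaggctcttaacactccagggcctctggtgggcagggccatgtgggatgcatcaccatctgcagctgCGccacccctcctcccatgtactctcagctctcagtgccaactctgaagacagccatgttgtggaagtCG
Serpinb5, chr1:106860925-106861224, + strand: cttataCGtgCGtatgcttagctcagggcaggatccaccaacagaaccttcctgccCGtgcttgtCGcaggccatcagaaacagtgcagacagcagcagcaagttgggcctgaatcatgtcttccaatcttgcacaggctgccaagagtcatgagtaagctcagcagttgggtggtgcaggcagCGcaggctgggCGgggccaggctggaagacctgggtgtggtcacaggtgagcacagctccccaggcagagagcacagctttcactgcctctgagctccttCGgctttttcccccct
Tph2, chr10:115184973-115185272, - strand: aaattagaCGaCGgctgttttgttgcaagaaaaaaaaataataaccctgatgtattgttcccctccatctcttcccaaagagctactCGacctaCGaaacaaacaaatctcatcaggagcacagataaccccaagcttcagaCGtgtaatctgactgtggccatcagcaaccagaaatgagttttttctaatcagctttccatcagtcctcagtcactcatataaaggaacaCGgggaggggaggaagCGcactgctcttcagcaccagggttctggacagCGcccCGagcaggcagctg
Cst12 holds 3 CpG, Serpinb5 7 and Tph2 9, and Nt5el and Il1f9, not printed, hold 9 and 1. The median over 32851 mouse promoters of the same length is 7, and 31.4%, 51.4% and 56.5% of promoters hold at most as many as Cst12, Serpinb5 and Tph2. So these promoters lay near or below the middle of all mouse promoters in CpG number.

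Genes of lists known for silencing were called in few cases or in both directions. Whether G9a silences the genes above that were on in both knockout groups was not tested. Of 13 genes known to be kept silent outside the germ line that are in the files, 9 could be tested, and Magea13 alone was higher. Xlr4a, an X-linked gene of a lymphocyte-regulated family, was lower, with 0 and 0 CPM in iKO CFA and 1.04 and 1.64 CPM in WT Veh, at least 31.5-fold lower against a limit of 3 reads over both iKO CFA libraries. It had 0.196 and 0.201 CPM in iKO Veh and 1.18 and 1.37 CPM in WT CFA. The list's median log2 fold change was -0.74. Of 54 clustered protocadherins tested, cell-surface genes that give neurons their identity, 2 were higher and 1 lower, with a median of -0.03, close to -0.04 over all genes. Their medians were -0.51 against WT CFA and -0.57 against iKO Veh. In 11 of the 54, both iKO CFA libraries lay below the 6 others, against 6.81% of all genes, and in 1 above them. Imprinted genes, expressed from 1 parental copy, were split, with 6 of 27 higher and 6 lower beside 10.1% and 9.43% of all genes. The counts were 0 higher and 2 lower without WT Veh replicate 1, 3 and 4 without replicate 2, and 1 and 2 higher with 2 lower without iKO CFA replicate 1 and 2. Igf2, a growth factor gene, rose, with 292 and 324 CPM in iKO CFA and 25.4 and 21.9 CPM in WT Veh (log2 fold change 3.70 ± 0.53, adjusted p = 0.00464, lost without WT Veh replicate 1). Its levels were 69.8 and 52.6 CPM in iKO Veh and 16.5 and 60.1 CPM in WT CFA, all below iKO CFA.

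Neutrophil and mast cell genes were mostly higher. Of 18 genes tested, 16 passed as higher and 0 lower, with a median log2 fold change of 4.38 against -0.04 over all genes. In 17 of the 18, both iKO CFA libraries lay above the 6 others, against 7.56% of all genes. S100a8, a calcium-binding protein abundant in neutrophils, had 344 and 327 CPM in iKO CFA and 7.87 and 3.69 CPM in WT Veh, a log2 fold change of 5.86 ± 0.98 with adjusted p = 0.00766. Ngp, a neutrophil granule protein, had 269 and 267 CPM in iKO CFA and 6.84 and 3.54 CPM in WT Veh, 5.69 ± 0.85 on the log2 scale with adjusted p = 0.00535. S100a8 was at 19.2 and 14.3 CPM in iKO Veh and 5.55 and 57.7 CPM in WT CFA, and Ngp at 19.4 and 11.6 CPM in iKO Veh and 6.01 and 41.1 CPM in WT CFA, so both iKO CFA libraries were above the 6 others.

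Further granulocyte genes also had both iKO CFA libraries above the 6 others. Cd177, a neutrophil surface protein, had 35.9 and 36.5 CPM in iKO CFA and 0.704 and 0.417 CPM in WT Veh, 6.01 ± 0.53 on the log2 scale with adjusted p = 8.24e-04, and it kept this call in every alternative tried. Cxcr2, the receptor that draws neutrophils to chemokines, had 11.5 and 14.9 CPM in iKO CFA and 0.369 and 0.179 CPM in WT Veh, a log2 fold change of 5.59 ± 0.80. Mpo, the myeloperoxidase of early granulocytes, had 17.4 and 18.9 CPM in iKO CFA and 1.61 and 0.506 CPM in WT Veh (4.11 ± 0.49), and Ltf, lactoferrin of secondary granules, 175 and 183 CPM in iKO CFA and 5.19 and 3.6 CPM in WT Veh (5.35 ± 0.68). Cma1, a protease of mast cells, had 10.9 and 8.55 CPM in iKO CFA and 1.91 and 2.11 CPM in WT Veh, 2.27 ± 0.35 on the log2 scale. The calls of S100a8 and Ngp were lost without either WT Veh library, those of Cxcr2 and Ltf without WT Veh replicate 1, and that of Cma1 without WT Veh replicate 1 or iKO CFA replicate 1.

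Summed over the list, the level was 1689 and 1696 CPM in iKO CFA, 212 and 160.3 CPM in iKO Veh, 130.2 and 336 CPM in WT CFA and 123 and 115 CPM in WT Veh. In bulk tissue, more cells of a type and more RNA per cell cannot be told apart, here and for each cell type below. The number called was 2 without WT Veh replicate 1, 5 without replicate 2, and 8 and 7 without iKO CFA replicate 1 and 2. Against WT CFA, 4 were higher with a median of 3.05, and against iKO Veh, 0 were called with a median of 3.82.

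Red cell genes were higher beside the granulocyte genes, and 1 WT CFA library also carried them. Of 9 tested, 6 were higher and 0 lower, with a median of 2.80. Hbb-bs, an adult beta globin whose near-identical copy Hbb-bt may share its reads, had 857 and 788 CPM in iKO CFA and 156 and 64.6 CPM in WT Veh (2.90 ± 0.85, adjusted p = 0.0453). The list summed to 1750.2 and 1634 CPM in iKO CFA, 459 and 382 CPM in iKO Veh, 217 and 1633 CPM in WT CFA and 397 and 182 CPM in WT Veh. WT CFA replicate 2 was thus near iKO CFA in red cell genes, while its granulocyte genes summed to 336 CPM. The part of blood in the granulocyte result was not tested. With the replicate block 0 of these genes were called, and likewise when any 1 of the iKO CFA, iKO Veh or WT Veh libraries was left out.

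Fat cell genes had the highest median of the lists after the neutrophil and mast cell genes. Of 10 adipocyte genes tested, 5 were higher and 0 lower, with a median log2 fold change of 3.50, the same with Plin1 set at its bound. Cfd, adipsin, a complement protease made by fat, had 28.8 and 44 CPM in iKO CFA and 0.536 and 0.774 CPM in WT Veh, 5.78 ± 0.74 on the log2 scale with adjusted p = 0.00322. It was also higher than in iKO Veh, where it had 0.392 and 0.115 CPM (adjusted p = 0.0382), and than in WT CFA, where it had 1.39 and 5.92 CPM (adjusted p = 0.0414). Adipoq, the hormone adiponectin, had 4.19 and 6.28 CPM in iKO CFA and 0.201 and 0.238 CPM in WT Veh, a log2 fold change of 4.55 ± 0.83. Plin1, which coats lipid droplets, had 1.45 and 3.1 CPM in iKO CFA and 0 reads in WT Veh, at least 48.8-fold higher against a limit of 3 reads over both WT Veh libraries. The call of Cfd was lost without WT Veh replicate 1, that of Adipoq without either WT Veh library or iKO CFA replicate 2, and that of Plin1 without any 1 of the 4 libraries compared.

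Summed over the list, fat genes were at 109.7 and 144 CPM in iKO CFA, 16.9 and 19.3 CPM in iKO Veh, 16.7 and 42.4 CPM in WT CFA and 49.6 and 25.1 CPM in WT Veh. Leaving out WT Veh replicate 1 left 0 of these genes called and leaving out replicate 2 left 1. Leaving out iKO CFA replicate 1 or 2 left 3 and 1.

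Single vessel and connective tissue genes rose. Of 15 endothelial genes, 3 were higher and 0 lower, and of 20 fibroblast and matrix genes 2 were higher and 0 lower, beside 10.1% of all genes higher. Against WT CFA, 5 of the 20 fibroblast and matrix genes were higher, where 1.5% of all genes were. Against iKO Veh, 2 of the 20 were higher, where 0.0395% of all genes were. In 6 of the 20, both iKO CFA libraries lay above the 6 others, against 7.56% of all genes. Plvap, a protein of vessel pores, had 44.1 and 54 CPM in iKO CFA and 7.1 and 7.09 CPM in WT Veh, 2.79 ± 0.37 on the log2 scale with adjusted p = 0.00346. Vwf, von Willebrand factor, had 67 and 72.9 CPM in iKO CFA and 35.5 and 29.7 CPM in WT Veh (1.10 ± 0.17), and Eln, elastin, 18.6 and 19.8 CPM in iKO CFA and 6.84 and 6.97 CPM in WT Veh (1.48 ± 0.25). Ptgds, the prostaglandin D synthase that is abundant in the coverings of the nervous system, had 1388 and 1789.8 CPM in iKO CFA and 35.1 and 52.6 CPM in WT Veh, a log2 fold change of 5.18 ± 0.82 with adjusted p = 0.00655. It was at 141 and 68.3 CPM in iKO Veh and 62.3 and 391 CPM in WT CFA. The endothelial list summed to 424 and 448 CPM in iKO CFA and 306 and 275 CPM in WT Veh, and 8 of its 15 genes had both iKO CFA libraries above the 6 others, against 7.56% of all genes. The calls of Plvap, Vwf, Eln and Ptgds were lost without WT Veh replicate 1. Those of Vwf and Eln were also lost without iKO CFA replicate 2, and that of Eln without iKO CFA replicate 1 or WT Veh replicate 2.

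A gene had to differ in the same direction from WT Veh, WT CFA and iKO Veh to be called as particular to iKO CFA. The largest of a gene's 3 p-values was taken and adjusted over all genes, so a gene such as Cfd can pass in each comparison alone and not here. At an adjusted p under 0.05, 0 genes were called, with 319 higher and 446 lower at an unadjusted p under 0.05 and a smallest adjusted p of 0.161. With DESeq2's Wald test, 52 were called higher and 9 lower. Genes to name were taken from those with an established name and a mean log2 CPM of at least 1. Both iKO CFA libraries also had to lie outside the range of the 6 others. Among these, the 5 with the smallest p were Pi16, Cd177, Clec3b, Sfrp4 and Hp, and all 5 were higher in iKO CFA. Pi16, a marker of fibroblasts around vessels and nerves, had 16.6 and 17.6 CPM in iKO CFA, 2.79 and 2.78 CPM in iKO Veh, 1.95 and 2.84 CPM in WT CFA and 2.14 and 2.77 CPM in WT Veh. Clec3b, tetranectin, had 14.3 and 15.5 CPM in iKO CFA, 1.59 and 0.775 CPM in iKO Veh, 1.34 and 1.71 CPM in WT CFA and 1.88 and 1.55 CPM in WT Veh. The 6 other libraries were close together for both genes. That both iKO CFA libraries lay outside their range was a condition for naming these genes.

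Sfrp4, a secreted inhibitor of Wnt signals, had 54.2 and 63.6 CPM in iKO CFA and 7.3 and 8.94 CPM in WT Veh, and Hp, the haemoglobin-binding protein haptoglobin, 38.1 and 43.9 CPM in iKO CFA and 3.32 and 3.37 CPM in WT Veh. Their smallest log2 fold changes over the 3 comparisons were 2.57 for Sfrp4 and 3.40 for Hp, and 2.61 for Pi16 and 3.12 for Clec3b. Without WT CFA replicate 2, 571 genes were called higher and 1167 lower against all 3 groups, and without WT CFA replicate 1, 35 and 2. In each of the 6 other libraries left out in turn, the count was 0.

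**Figure D2:**
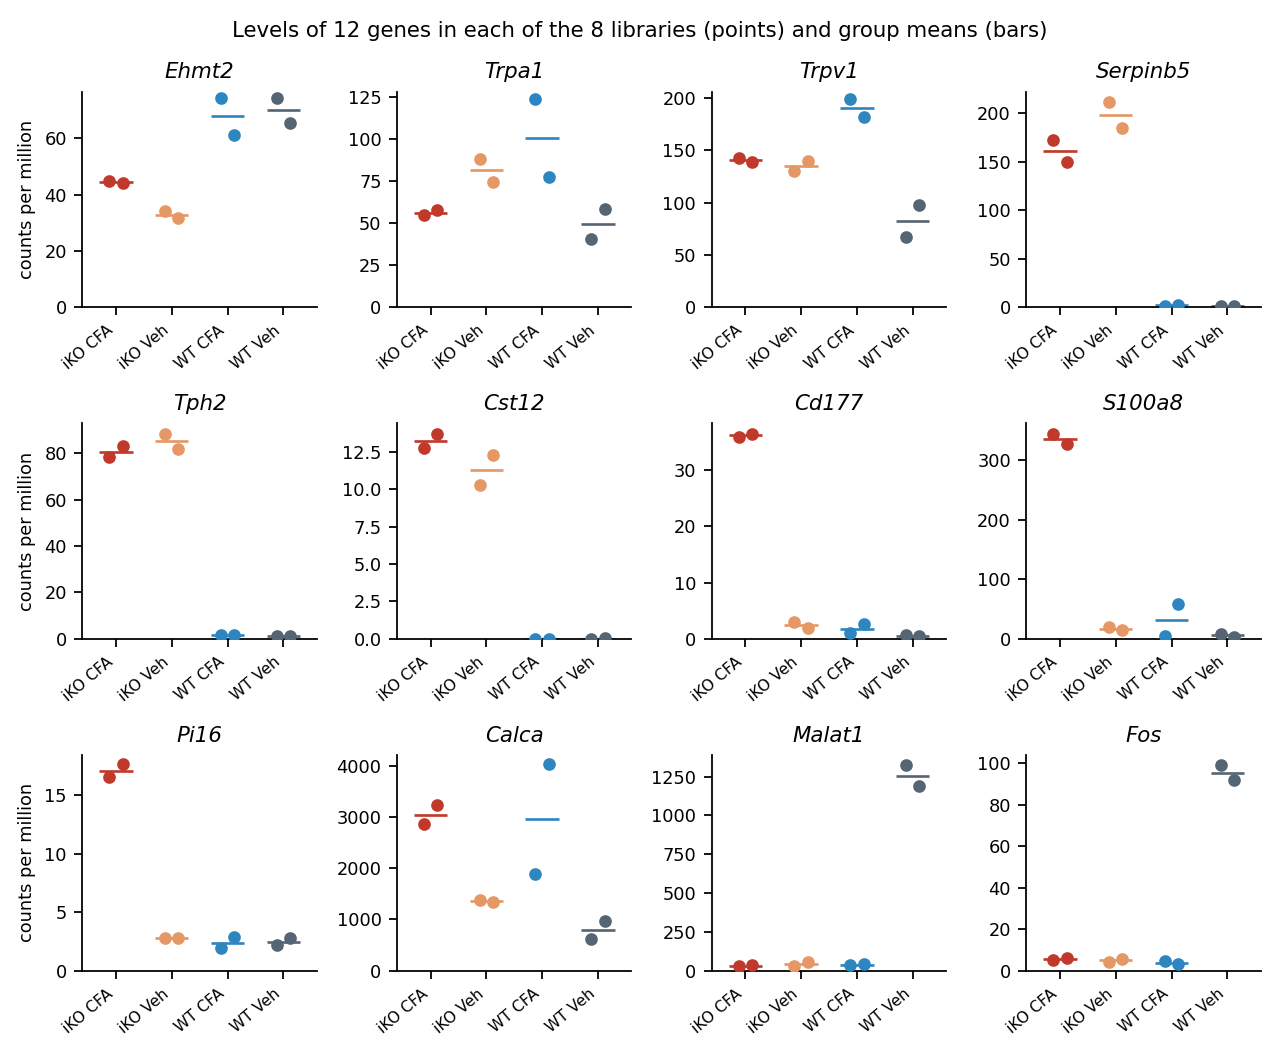
Level in CPM (vertical axes, from 0) of 12 genes in the 8 libraries, by group. Points are libraries and bars are means of 2: Serpinb5, Tph2 and Cst12 were high in both knockout groups, Cd177, S100a8 and Pi16 in iKO CFA, and Malat1 and Fos in WT Veh.

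Peptidergic nociceptor genes were called mostly higher. Of 14 tested, 7 were higher and 1 lower, with a median log2 fold change of 0.70 against -0.04 over all genes. Calca, the gene of the vessel-widening peptide CGRP, had 2855 and 3229 CPM in iKO CFA and 624 and 972 CPM in WT Veh, 1.93 ± 0.37 on the log2 scale with adjusted p = 0.0112. Nmb, the itch and pain peptide neuromedin B, had 155 and 159 CPM in iKO CFA and 59.9 and 96 CPM in WT Veh (1.01 ± 0.23). The 1 gene that was lower, Gal, encodes galanin, a peptide that neurons make after axon damage, with 10.2 and 13 CPM in iKO CFA and 97.6 and 57.2 CPM in WT Veh (-2.73 ± 0.28, adjusted p = 0.00139).

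The companion groups had Calca above both WT Veh libraries as well. Calca had 1378 and 1343 CPM in iKO Veh and 1890.3 and 4032 CPM in WT CFA, and 0 of the 14 genes were called against either group. When either iKO CFA library or WT Veh replicate 1 was left out, 0 genes of the list were called higher, and 4 when WT Veh replicate 2 was, while the Gal call was kept in every alternative. With offsets for transcript length, described below, 4 were higher and 1 lower.

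Growth factor genes and their receptors moved in both directions, with 5 of 21 higher and 4 lower. Bdnf, brain-derived neurotrophic factor, had 77.2 and 71.8 CPM in iKO CFA and 30.2 and 35.1 CPM in WT Veh, 1.2 ± 0.19 on the log2 scale with adjusted p = 0.00706. Gdnf, the ligand of non-peptidergic neurons, had 0.0301 and 0 CPM in iKO CFA and 2.51 and 1.34 CPM in WT Veh, a ratio of 132-fold lower (23.2 to 5250.4) on 1 read in iKO CFA and 120 in WT Veh. Lifr, the receptor for leukaemia inhibitory factor, had 197 and 179 CPM in iKO CFA and 452 and 498 CPM in WT Veh (-1.34 ± 0.32). Oprl1, the nociceptin receptor, was the member of the opioid and cannabinoid list with the smallest p, with 31.1 and 29.8 CPM in iKO CFA and 8.58 and 14.3 CPM in WT Veh (1.41 ± 0.28). In that list, 2 of 15 genes were higher and 0 lower. The calls of Bdnf, Gdnf, Lifr and Oprl1 were lost without either iKO CFA library or WT Veh replicate 1, those of Gdnf and Lifr also without WT Veh replicate 2, and that of Lifr with length offsets.

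Genes of 2 other neuron classes were also counted beside the 10.1% higher and 9.43% lower of all genes. Of 20 genes of non-peptidergic nociceptors, 2 were higher and 0 lower, namely Mrgprx1, an itch receptor, with 28.7 and 30.5 CPM in iKO CFA and 8.98 and 13.1 CPM in WT Veh, and Nppb, a natriuretic peptide of itch neurons, with 33.8 and 31.7 CPM in iKO CFA and 8.08 and 10.7 CPM in WT Veh. Of 19 genes of touch and position sense neurons, 0 were higher and 3 lower. Calb1, calbindin, had 8.38 and 7.04 CPM in iKO CFA and 28 and 42.7 CPM in WT Veh, -2.20 ± 0.24 on the log2 scale with adjusted p = 0.00178, and at 18.1 and 19.4 CPM in iKO Veh and 29.8 and 31.2 CPM in WT CFA all 6 other libraries were above iKO CFA. Avil, whose regulatory sequence drives Cre in the knockout, had 221 and 175 CPM in iKO CFA and 509 and 662 CPM in WT Veh (-1.57 ± 0.37, adjusted p = 0.0231), and 471 and 429.5 CPM in iKO Veh and 942 and 398 CPM in WT CFA. The Calb1 call was kept in every alternative, and those of Avil and Nppb were lost without any 1 of the iKO CFA or WT Veh libraries. That of Mrgprx1 was lost without WT Veh replicate 1 or iKO CFA replicate 2. With length offsets, 4 genes of the touch and position list were higher and 2 lower.

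Gad1, which makes the inhibitory transmitter GABA, was higher in all 4 knockout libraries. It had 18.2 and 16.7 CPM in iKO CFA, 16.8 and 15 CPM in iKO Veh, 0.561 and 0.274 CPM in WT CFA and 1.78 and 1.31 CPM in WT Veh, a log2 fold change of 3.50 ± 0.32 between iKO CFA and WT Veh with adjusted p = 9.32e-04. Of the 7 other testable genes that mark spinal cord tissue, 2 were higher and 1, Gfap, described below, was lower. Those higher were Cldn11 (log2 fold change 2.11, adjusted p = 0.0155) and Aqp4 (1.04, adjusted p = 0.0162). For both genes, the iKO CFA libraries lay above all other libraries. Their calls were lost without any 1 of the iKO CFA or WT Veh libraries. Olig1, a marker of the oligodendrocyte line, was not called (adjusted p = 0.0562), with 0 reads in iKO CFA and 30 in WT Veh. The source of the Gad1 reads was not tested.

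Channel and receptor genes of the neurons were called in both directions, beside 10.1% higher and 9.43% lower over all genes. Of 30 transduction channels, 2 were higher and 1 lower. P2rx6, an ATP-gated channel subunit, had 30.2 and 34.8 CPM in iKO CFA and 10.8 and 17.9 CPM in WT Veh (1.18 ± 0.29), and Piezo2, the touch channel, 149 and 118 CPM in iKO CFA and 300.4 and 427 CPM in WT Veh (-1.45 ± 0.42). Of 14 sodium channel genes 1 was higher and 2 lower, of 42 potassium channel genes 3 and 5, of 18 calcium channel genes 1 and 3, and of 33 glutamate and GABA receptor genes 0 and 4. Both iKO CFA libraries lay below the 6 others in 4 sodium, 8 potassium, 4 calcium channel and 5 receptor genes of these lists. Over all genes this share was 6.81%. Both lay above the 6 others in 1 calcium channel gene and in 0 genes of the other 3 lists. Without WT Veh replicate 1 or either iKO CFA library, 0 of the sodium, potassium, calcium and glutamate or GABA receptor genes were called lower. Scn2b, a sodium channel beta subunit, was the 1 sodium channel gene that rose, with 145 and 143 CPM in iKO CFA and 40.7 and 50.8 CPM in WT Veh (1.66 ± 0.24, adjusted p = 0.00506). In iKO Veh it had 188 and 175 CPM and in WT CFA 82.5 and 52.3 CPM, so it was higher in all 4 knockout libraries than in all 4 wild-type libraries. The calls of P2rx6, Piezo2 and Scn2b were lost without WT Veh replicate 1, and those of P2rx6 and Piezo2 also without either iKO CFA library. That of Piezo2 was further lost without WT Veh replicate 2, without either iKO Veh library and with length offsets.

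Transcript length moved with the comparison, and it bears on the channel, chromatin, respiratory and ribosomal lists. Genes were split into 5 classes of equal number by their longest annotated transcript. The median log2 fold change was 0.51 in the shortest class, then 0.24, 0.03 and -0.16, and -0.54 in the longest. Relative to the mean of all 8 libraries, the longest class was at -0.29 and -0.32 in iKO CFA and at 0.21 and 0.22 in WT Veh, with 0.20 and 0.18 in iKO Veh and 0.18 and -0.38 in WT CFA. The WT CFA library with the low value was replicate 2, which also had the highest mitochondrial share. With offsets for length, an alternative chosen after seeing the data, 3211 genes were called, 1483 higher and 1728 lower. Of the genes called without offsets, 2555 were kept. How far length or RNA quality moved single genes was not tested otherwise.

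**Figure D3:**
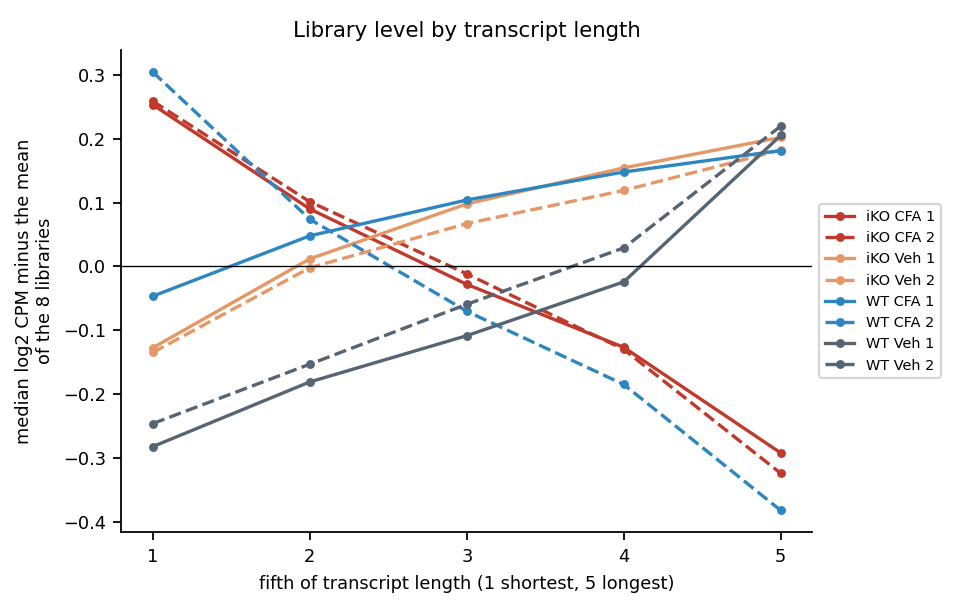
Median log2 CPM of the genes in 5 classes of transcript length, relative to the mean of the 8 libraries (vertical axis), from the shortest to the longest class (horizontal axis). Solid lines are replicate 1 and dashed lines replicate 2: both iKO CFA libraries and WT CFA replicate 2 fell with length, to -0.29, -0.32 and -0.38, and the 5 others were higher in the longest class than in the shortest.

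With these offsets the median of the sodium channel list was 0.02, against -0.66 without. For calcium channels the values were -0.22 and -0.67, and for potassium channels 0.06 and -0.12. The median lengths of these lists were 7015, 7681 and 4972 bases, against 3046 for all genes with a length. The sodium and potassium channel medians thus changed sign with this setting.

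Genes of energy supply were called only as higher. Of 59 nuclear genes of the respiratory chain, 24 were higher and 0 lower, with a median log2 fold change of 0.67. Atp5g1, a subunit of the ATP synthase ring, had 198 and 215 CPM in iKO CFA and 63.4 and 83 CPM in WT Veh (1.50 ± 0.24, adjusted p = 0.00706), and Ndufs8, of complex I, 141 and 142 CPM in iKO CFA and 44.6 and 56.7 CPM in WT Veh (1.48 ± 0.29). Of 13 mitochondrial transcripts 3 were higher and 0 lower, and ND2, of the complex I core, had 5920.5 and 5711 CPM in iKO CFA, 1364 and 1681 CPM in iKO Veh, 3426 and 11742 CPM in WT CFA and 1605 and 1197 CPM in WT Veh (2.05 ± 0.49 between iKO CFA and WT Veh, adjusted p = 0.0238, lost without any 1 of these 4 libraries). Of 64 ribosomal protein genes, 5 were higher and 0 lower, a smaller share than the 10.1% of all genes. The respiratory and ribosomal transcripts are short, with medians of 1231 and 1100.0 bases. With length offsets, 8 respiratory genes were higher and 2 lower, and 2 ribosomal genes were higher and 8 lower, which turned the ribosomal median to -0.16, against 0.31 without. When WT Veh replicate 1 or either iKO CFA library was left out, 0 respiratory genes were called, and 2 when WT Veh replicate 2 was. Leaving out either iKO Veh library left 6. The mitochondrial genes had no length, so the offsets could not be applied to them.

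Sterol synthesis genes were also called only as higher. Of 24 tested, 9 were higher and 0 lower, with a median of 0.54, and with length offsets 8 were higher and 1 lower. Tm7sf2, a sterol reductase, had 95 and 102 CPM in iKO CFA and 34.6 and 45.1 CPM in WT Veh, 1.31 ± 0.20 on the log2 scale with adjusted p = 0.0059. Cyp51, which removes a methyl group from lanosterol, had 237 and 232 CPM in iKO CFA and 135 and 134 CPM in WT Veh (0.80 ± 0.18). In iKO Veh, Cyp51 had 221 and 213 CPM, and in WT CFA 211 and 258 CPM, so the WT Veh libraries were the low ones of all 8. Leaving out WT Veh replicate 1 or iKO CFA replicate 2 left 0 genes of the list called, and leaving out any other 1 of the iKO CFA, iKO Veh or WT Veh libraries left 1.

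Some abundant genes of the neuronal skeleton were among those with the largest rise in CPM, and others fell. Of the 20 genes that mark neurons in general, 4 were higher and 2 lower, with a median log2 fold change of -0.16. Map2, of the neuronal skeleton, was lower (-1.68, adjusted p = 0.0125), with log2 fold changes of -1.87 to -1.28 over all settings. The Map2 call was lost without any 1 of the iKO CFA or WT Veh libraries. Nefm, a neurofilament gene, was not called (-1.10, adjusted p = 0.0661), with both iKO CFA libraries below the 6 others. Tuba1a, an alpha tubulin of neurons, had 5762 and 6005 CPM in iKO CFA and 1778 and 2026 CPM in WT Veh, 1.63 ± 0.27 on the log2 scale with adjusted p = 0.00708. Its close relative Tuba1b had 1806 and 2039 CPM in iKO CFA and 723 and 669.9 CPM in WT Veh, and reads may be shared between the 2 genes. Tppp3, which bundles microtubules, had 2652 and 2622 CPM in iKO CFA and 1012 and 1313 CPM in WT Veh (1.18 ± 0.24), and Uchl1, the neuronal ubiquitin hydrolase, 2828 and 2773 CPM in iKO CFA and 1154 and 1548 CPM in WT Veh (1.05 ± 0.21). Apoe, the lipid carrier of satellite glia, had 5222 and 5431 CPM in iKO CFA and 2749 and 2588 CPM in WT Veh, 1.0 ± 0.30 on the log2 scale with adjusted p = 0.0495, a call that was lost in 11 alternatives. Among the largest falls in CPM were Prune2, a neuronal gene with 449.7 and 315 CPM in iKO CFA and 1234 and 1646 CPM in WT Veh, Dst, a cytoskeletal linker, with 399 and 332 CPM in iKO CFA and 1067 and 1269 CPM in WT Veh, and Ahnak, a giant scaffold protein, with 538 and 472 CPM in iKO CFA and 1764 and 1008 CPM in WT Veh. The calls of Prune2, Dst, Ahnak, Uchl1 and Apoe were lost with length offsets. The same calls and those of Tuba1a and Tppp3 were lost without WT Veh replicate 1 or either iKO CFA library, those of Prune2, Dst and Apoe without WT Veh replicate 2, those of Prune2 and Apoe without either iKO Veh library, and that of Tuba1b without iKO CFA replicate 2.

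**Figure D4:**
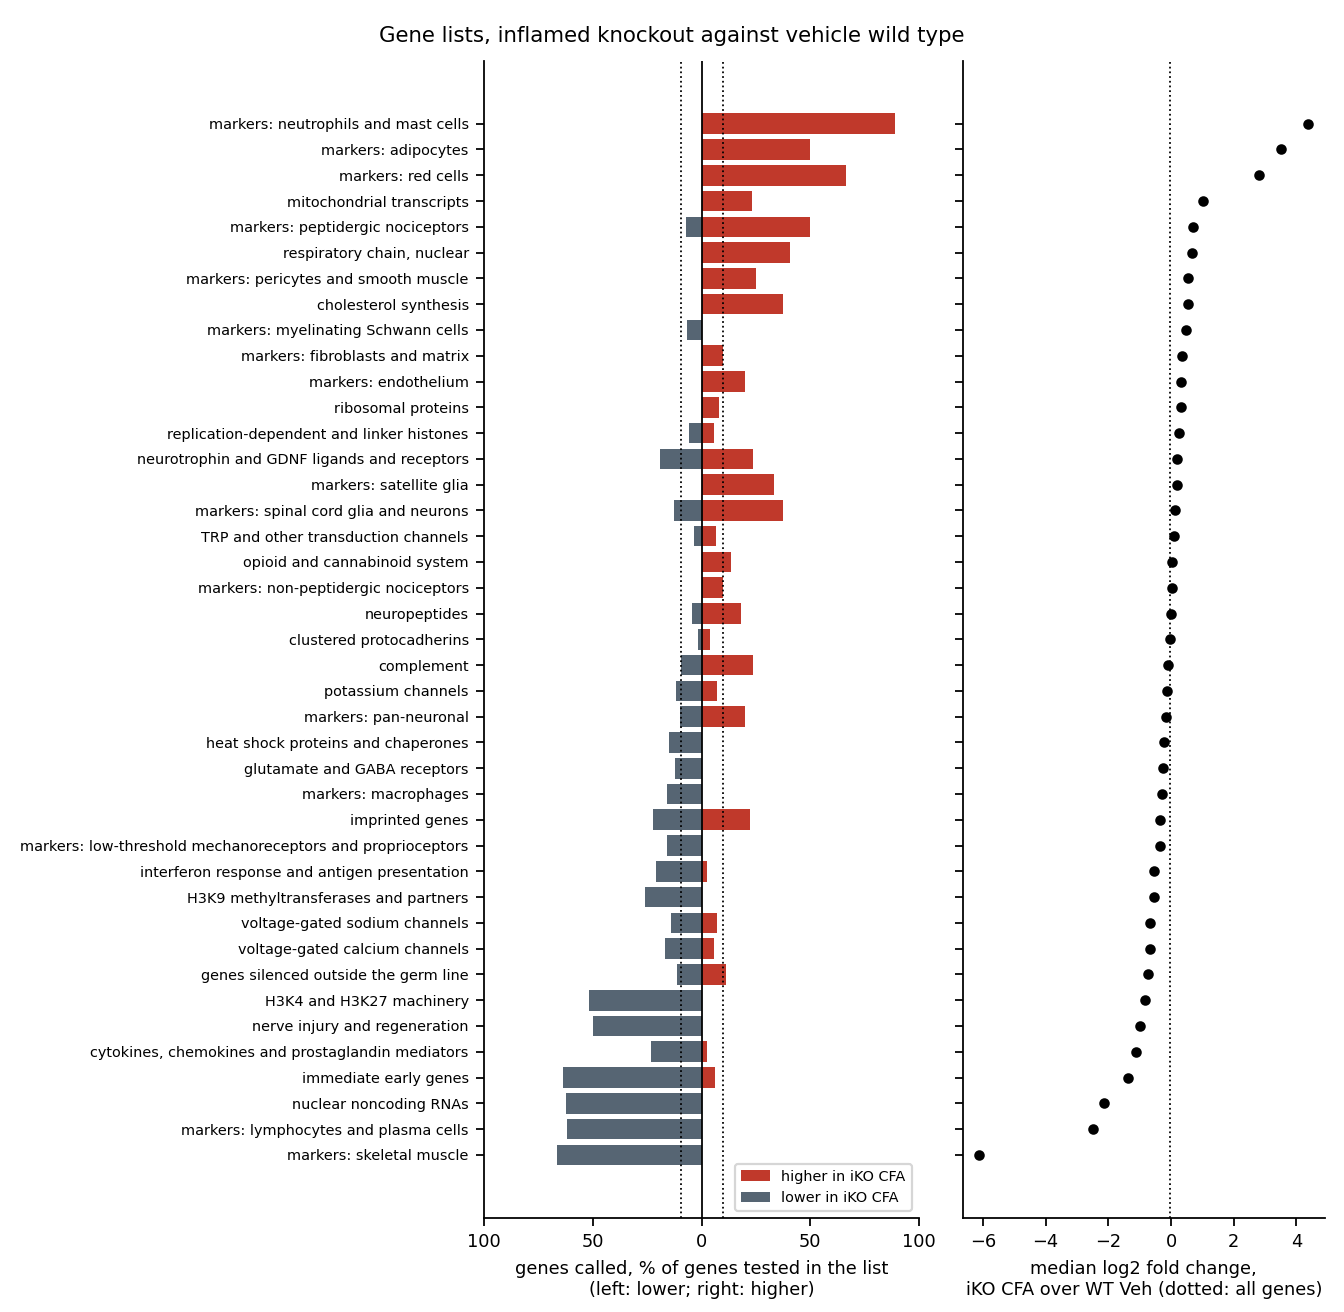
Share of the tested genes of each list called higher (red, right) or lower (slate, left) in iKO CFA than in WT Veh, with dotted lines at 10.1% and 9.43% for all genes, and the median log2 fold change of each list (right panel). Neutrophil, adipocyte and red cell genes stand at the top, and muscle, lymphocyte, nuclear noncoding and immediate early genes at the bottom.

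Noncoding RNAs that stay in the nucleus were among the genes that fell most. Of 16 tested, 10 were lower and 0 higher, with a median log2 fold change of -2.14. Malat1, a long RNA of nuclear speckles, had 27.4 and 35.2 CPM in iKO CFA and 1323 and 1187 CPM in WT Veh, -5.33 ± 0.33 on the log2 scale with adjusted p = 1.74e-04. Meg3, an imprinted RNA abundant in neurons, had 5.3 and 3.67 CPM in iKO CFA and 877 and 1098 CPM in WT Veh (-7.78 ± 0.59, adjusted p = 3.86e-04). Neat1, which builds paraspeckles, had 16.6 and 8.11 CPM in iKO CFA and 785 and 459 CPM in WT Veh (-5.65 ± 0.49), Snhg11 21.7 and 22.3 CPM in iKO CFA and 721 and 851 CPM in WT Veh (-5.16 ± 0.26), and Miat 4.85 and 4.96 CPM in iKO CFA and 314 and 407 CPM in WT Veh (-6.20 ± 0.39). The calls of these 5 and of Rtl1 and Firre were kept in every alternative tried. Rtl1, which shares an imprinted region with Meg3, had 0.663 and 0.329 CPM in iKO CFA and 61.9 and 72 CPM in WT Veh, and Firre, an X-linked nuclear RNA, 0.783 and 0.11 CPM in iKO CFA and 62.7 and 54.9 CPM in WT Veh.

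These RNAs were high in WT Veh only, and 0 of them were called between iKO CFA and the companion groups. The list summed to 697 and 660.0 CPM in iKO CFA, 897 and 1025 CPM in iKO Veh, 995 and 778 CPM in WT CFA and 5344 and 5471 CPM in WT Veh. Malat1 was at 31.9 and 57 CPM in iKO Veh and 36.3 and 39.3 CPM in WT CFA. Its log2 fold change was -0.51 ± 0.28 against iKO Veh and -0.27 ± 0.28 against WT CFA. What sets the WT Veh libraries apart was not tested.

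Immediate early genes, which neurons switch on within minutes of activity or of handling, were lower. Of 33 tested, 21 were lower and 2 higher, with a median log2 fold change of -1.38. Fos, a subunit of the AP-1 factor, had 5.21 and 5.87 CPM in iKO CFA and 99.1 and 91.9 CPM in WT Veh, -4.11 ± 0.27 on the log2 scale with adjusted p = 2.42e-04. Ccn1, a matrix protein induced by growth factors, had 4.52 and 5.7 CPM in iKO CFA and 81.4 and 109 CPM in WT Veh (-4.22 ± 0.25, adjusted p = 1.29e-04), and Zfp36, which destabilises cytokine messengers, 8.01 and 7.73 CPM in iKO CFA and 119.8 and 85.5 CPM in WT Veh (-3.70 ± 0.27). The 2 genes that were higher were Jund and Ccn2, named here after their values were seen, and neither was called with length offsets or without any 1 of the iKO or WT Veh libraries. As with the nuclear RNAs, WT Veh was the group that stood apart: Fos was at 4.09 and 5.63 CPM in iKO Veh and 4.7 and 3.01 CPM in WT CFA, and 0 genes of the list were called against either group. The number of genes lower was 7 without WT Veh replicate 1, 16 without replicate 2, and 11 and 9 without iKO CFA replicate 1 and 2.

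The promoters of Fos and Ccn1 are printed because both genes fell together and activity-driven genes often carry the cyclic AMP response motif. The letters TGACGT or their reverse complement ACGTCA are in capitals, on the same RefSeq build and window as above.
Fos, chr12:85473640-85473939, + strand: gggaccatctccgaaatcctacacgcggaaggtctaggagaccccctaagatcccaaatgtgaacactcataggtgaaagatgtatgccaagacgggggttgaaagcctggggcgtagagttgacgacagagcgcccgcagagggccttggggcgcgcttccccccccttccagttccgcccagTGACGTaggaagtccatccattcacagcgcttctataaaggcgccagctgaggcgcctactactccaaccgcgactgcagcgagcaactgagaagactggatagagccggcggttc
Ccn1, chr3:145649936-145650235, - strand: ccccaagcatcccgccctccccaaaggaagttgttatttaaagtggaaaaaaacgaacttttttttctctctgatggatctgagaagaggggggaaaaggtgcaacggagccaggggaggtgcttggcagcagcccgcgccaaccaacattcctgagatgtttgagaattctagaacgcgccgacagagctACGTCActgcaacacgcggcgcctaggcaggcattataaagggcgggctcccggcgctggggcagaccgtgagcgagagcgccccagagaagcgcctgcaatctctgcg
Of 27 immediate early genes of the list with a promoter in the table, 12 (44.4%) held the motif, against 7.51% of 32851 promoters. The genes of the list were counted whatever their change here, and called and uncalled ones were not compared. A match describes these letters only, and why Fos and Ccn1 fell was not tested.

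Genes of axon damage were also called only as lower. Of 26 nerve injury and regeneration genes, 13 were lower and 0 higher, with a median of -0.99. Atf3, the transcription factor that marks injured neurons, had 18.8 and 16.7 CPM in iKO CFA and 117 and 86.8 CPM in WT Veh, -2.52 ± 0.25 on the log2 scale with adjusted p = 0.00119. Sprr1a, induced in regrowing axons, had 2.02 and 1.75 CPM in iKO CFA and 53.3 and 27.9 CPM in WT Veh (-4.43 ± 0.64), and Sox11, a transcription factor of axon growth, 7.59 and 7.35 CPM in iKO CFA and 38.8 and 22.2 CPM in WT Veh (-2.03 ± 0.30). The Atf3 levels of 15.2 and 17.6 CPM in iKO Veh and 22.5 and 32.8 CPM in WT CFA were near those of iKO CFA. Gfap, the filament of reactive glia and a member of the spinal cord list, had 2.5 and 2.52 CPM in iKO CFA and 31.2 and 27.3 CPM in WT Veh (-3.54 ± 0.35, adjusted p = 0.00117). The number lower in the injury list was 3 without WT Veh replicate 1 or iKO CFA replicate 2, 5 without iKO CFA replicate 1, 7 without WT Veh replicate 2 and 8 without either iKO Veh library. The Atf3 and Gfap calls were kept in every alternative, while those of Sprr1a and Sox11 were lost without WT Veh replicate 1 or iKO CFA replicate 2, and that of Sox11 without iKO CFA replicate 1.

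Lymphocyte and plasma cell genes were lower. Of 21 tested, 13 were lower and 0 higher, with a median log2 fold change of -2.49. Jchain, which joins secreted antibodies, had 23.4 and 31.6 CPM in iKO CFA and 1944 and 780.1 CPM in WT Veh, -5.63 ± 0.57 on the log2 scale with adjusted p = 0.00134. Mzb1, of antibody-secreting cells, had 1.02 and 1.18 CPM in iKO CFA and 94.1 and 36.6 CPM in WT Veh (-5.88 ± 0.52), Ctla4, a brake on T cells, 0.151 and 0 CPM in iKO CFA and 16.9 and 17.3 CPM in WT Veh (-7.81 ± 0.93), and Cxcl13, the chemokine that gathers B cells and a member of the cytokine list, 0 and 0.137 CPM in iKO CFA and 39.3 and 34.9 CPM in WT Veh (-8.95 ± 0.69). Both WT Veh libraries carried these genes, with replicate 1 the higher of them for Jchain and Mzb1.

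Against WT CFA, 6 of the 21 genes were higher and 0 lower, with a median of 2.27, where 1.5% of all genes were higher. Jchain was at 4.73 and 2.3 CPM in iKO Veh and 0.961 and 0.445 CPM in WT CFA, below both iKO CFA libraries, with adjusted p = 0.00478 against WT CFA and 0.0831 against iKO Veh. The list summed to 207 and 234 CPM in iKO CFA, 145 and 121 CPM in iKO Veh, 129 and 184 CPM in WT CFA and 2395 and 1074 CPM in WT Veh. Leaving out WT Veh replicate 1 or iKO CFA replicate 2 left 3 genes lower than in WT Veh, and leaving out iKO CFA replicate 1 left 5. The calls of Jchain, Mzb1, Ctla4 and Cxcl13 were kept in every alternative.

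Other immune lists had more genes lower than higher against WT Veh, and medians above 0 against the companion groups. Of 39 cytokine, chemokine and prostaglandin genes 9 were lower and 1 higher, of 38 interferon and antigen presentation genes 8 and 1, and of 25 macrophage genes 4 and 0, against 9.43% and 10.1% of all genes. Without any 1 of the WT Veh or iKO CFA libraries, 1 to 3 cytokine, 1 to 3 interferon and 1 macrophage genes were lower. The median log2 fold change of the cytokine list was -1.12 against WT Veh, 1.15 against iKO Veh and 0.98 against WT CFA. For the interferon list it was -0.54 against WT Veh, 1.08 against iKO Veh and 0.69 against WT CFA, and for the macrophage list -0.28 against WT Veh, 1.51 against iKO Veh and 0.49 against WT CFA. Both iKO CFA libraries lay above the 6 others in 6 of 39 cytokine and 6 of 25 macrophage genes, against 7.56% of all genes. The macrophage list summed to 1041 and 1129.6 CPM in iKO CFA and 1428 and 1076 CPM in WT Veh, which overlapped. Il1b, an inflammatory cytokine, had 1.3 and 1.43 CPM in iKO CFA and 13.1 and 8.88 CPM in WT Veh (-3.01 ± 0.43, adjusted p = 0.00473). Gbp4, a guanylate-binding protein induced by interferon, had 4.37 and 7.15 CPM in iKO CFA and 91.5 and 54.9 CPM in WT Veh (-3.66 ± 0.44), and Cd14, the endotoxin co-receptor, 7.08 and 5.04 CPM in iKO CFA and 30.2 and 33.6 CPM in WT Veh (-2.40 ± 0.31). Complement genes were split, with 5 of 21 higher and 2 lower. C3, the central protein of the cascade, had 36 and 40.4 CPM in iKO CFA and 167 and 110.1 CPM in WT Veh (-1.86 ± 0.47). The calls of Gbp4 and Cd14 were kept in every alternative. The calls of Il1b and C3 were lost without WT Veh replicate 1 or either iKO CFA library, and that of C3 also without WT Veh replicate 2 and with length offsets.

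Skeletal muscle genes gave the lowest median, and 1 library carried them. Of 15 tested, 10 were lower and 0 higher, with a median log2 fold change of -6.11. Myh4, a fast muscle myosin, had 0.0603 and 0.11 CPM in iKO CFA and 61 and 0.626 CPM in WT Veh (-8.43 ± 2.06, adjusted p = 0.0258), and Ckm, muscle creatine kinase, 0.181 and 0.192 CPM in iKO CFA and 38 and 0.477 CPM in WT Veh. Tnnt3 and Tnnc2, of the muscle troponin complex, had at most 0.572 CPM in iKO CFA, and in WT Veh Tnnt3 had 95.7 and 1.88 CPM and Tnnc2 36.3 and 0.626 CPM. The list summed to 125 and 132 CPM in iKO CFA and 634 and 87.3 CPM in WT Veh. Leaving out WT Veh replicate 1 or either iKO CFA library left 0 of these genes called, and the replicate block left 1. The high values thus belong to WT Veh replicate 1.

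**Figure D5:**
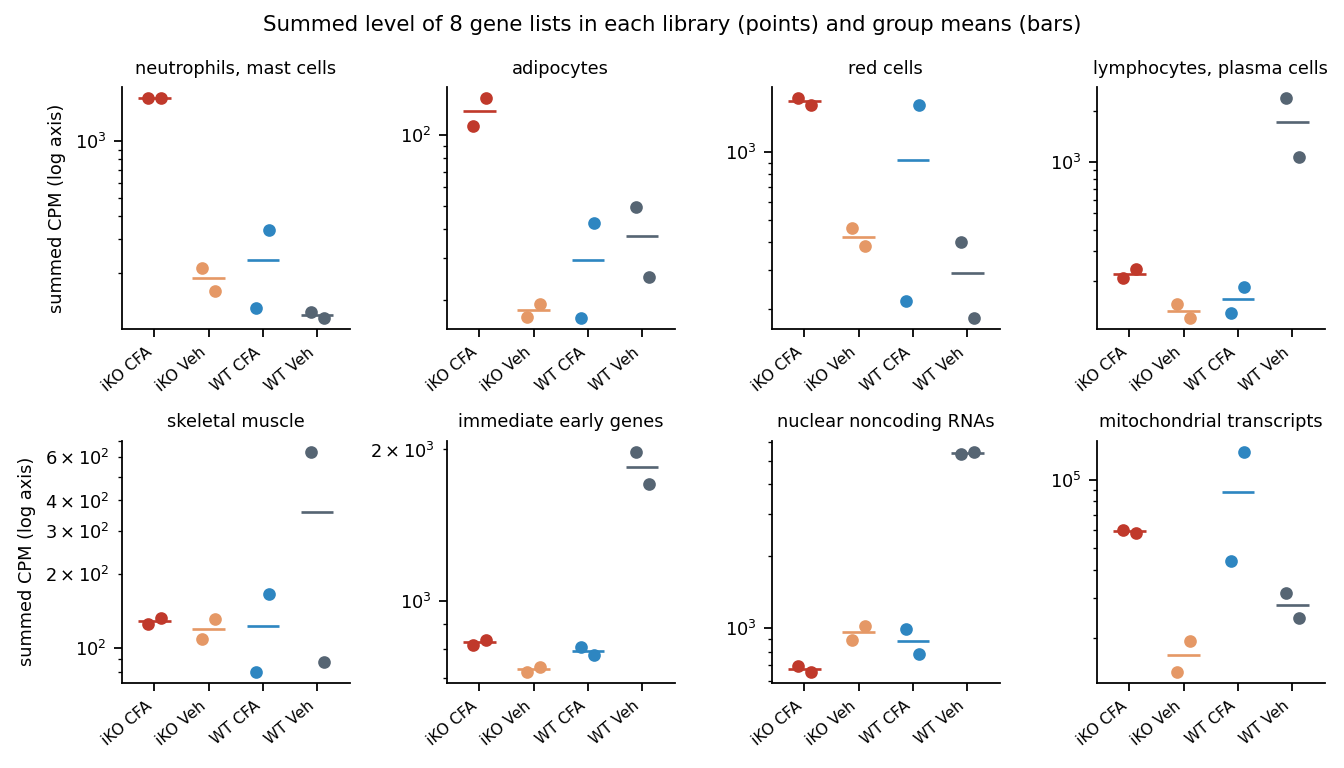
Summed CPM (log vertical axes) of 8 gene lists in the 8 libraries, by group. Points are libraries and bars are means of 2: neutrophil genes were highest in iKO CFA, muscle genes in WT Veh replicate 1, and nuclear noncoding RNAs and immediate early genes in both WT Veh libraries.

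Genes that write and erase histone marks were lower where they were called. Of 25 genes of H3K4 and H3K27 methylation, 13 were lower and 0 higher, with a median log2 fold change of -0.83. Kmt2a, which methylates H3K4, had 22.7 and 17.7 CPM in iKO CFA and 101 and 95.7 CPM in WT Veh, -2.28 ± 0.32 on the log2 scale with adjusted p = 0.00427. Kdm6b, which removes methyl groups from H3K27, had 16.4 and 18.4 CPM in iKO CFA and 46.3 and 44.6 CPM in WT Veh (-1.39 ± 0.17). Of 23 genes of H3K9 methylation, Ehmt2 among them, 6 were lower and 0 higher. Kdm3a, which removes the marks that G9a writes, had 9.97 and 11 CPM in iKO CFA and 28.6 and 26 CPM in WT Veh (-1.38 ± 0.24), with 14.2 and 14.8 CPM in iKO Veh and 18.5 and 11.7 CPM in WT CFA. The H3K4 and H3K27 genes have long transcripts, with a median of 6449 bases, and with length offsets 7 were lower with a median of -0.47. For the H3K9 list, 3 were lower with offsets. Leaving out any 1 of the iKO CFA, iKO Veh or WT Veh libraries lowered the counts of both lists. All calls of the H3K9 list were lost without WT Veh replicate 1 or either iKO CFA library. The numbers of H3K4 and H3K27 genes called lower were 3 without WT Veh replicate 1, 6 without replicate 2, and 3 and 2 without iKO CFA replicate 1 and 2, and the Kmt2a call was lost without iKO CFA replicate 2. The Kdm6b call was kept in every alternative, and that of Kdm3a was lost without WT Veh replicate 1 or either iKO CFA library.

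A pair of pseudogenes was missing from the iKO CFA libraries. Ifi203-ps, a copy of an interferon-induced gene family, had 0 reads in both iKO CFA libraries and 7.81 and 8.64 CPM in WT Veh, at least 192-fold lower against 3 reads over both iKO CFA libraries. H2af-ps2, a histone pseudogene, also had 0 reads in iKO CFA and 3.08 and 3.72 CPM in WT Veh, at least 79.5-fold lower. Ifi203-ps was at 0.417 and 0.115 CPM in iKO Veh and 0.187 and 0.274 CPM in WT CFA, so WT Veh was the high group. H2af-ps2 was at 0 and 0.0287 CPM in iKO Veh and 5.34 and 3.94 CPM in WT CFA, so both knockout groups were near 0. Reads of pseudogenes may be shared with their parent genes, and these levels are uncertain for that reason.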

How the data were processed

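RNA of mouse dorsal root ganglia was sequenced from 8 libraries, 2 per group. The authors deposited raw read counts for each gene symbol, not normalised. Per the submitters' processing notes, reads were aligned with HISAT2 2.2.1 to GRCm39, handled with SAMtools 1.19.2 and counted with featureCounts 2.0.6. The notes also name DESeq2, without a version. The annotation, strand setting and read layout were not given in the sources used here, so overlapping, antisense and near-identical genes are uncertain.

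These counts entered edgeR 4.0.16 (R 4.3.3): filterByExpr, TMM scaling and 1 quasi-likelihood fit of all 8 libraries with a mean per group (common dispersion 0.0753). Tests were two-sided with Benjamini-Hochberg adjustment over 20235 genes and a threshold of 0.05. A gene was called against all 3 other groups from the largest of its 3 p-values. CPM use TMM-scaled sizes. The 42 lists of 975 symbols and the genes named were chosen with earlier results of these data known. The rule named Ehmt2, Trpa1 and Trpv1, and among called genes of mean log2 CPM at least 1 whose groups did not overlap, the 12 largest rises and falls in fold and 8 in level. It also named the 5 genes of smallest p per list and, where 0 genes were called, in the test against all 3 groups. The alternatives were RLE scaling, no filter, DESeq2 1.42.0, edgeR's newer dispersion method, 4 libraries only, no WT CFA, a replicate block, each library left out and, after seeing the data, offsets from a loess curve of level on GENCODE vM21 transcript length (91.1% of genes matched, but 0 of 13 mitochondrial genes). The scripts were tested on simulated data. Same-numbered libraries did not deviate together, which gave no sign of pairing by number but cannot exclude it. Precision is limited by 2 libraries per group.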

Additional observations from a re-analysis of the deposited data

Results flagged for a closer look

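For 6 genes, Trpa1, Trpv1 and 4 of those with the smallest p against all 3 groups, the response to CFA differed between knockout and wild type by the interaction term of the edgeR fit. The values are the CFA response in iKO mice minus that in WT mice on the log2 scale. Trpa1 had -1.56 ± 0.37 (SE), with adjusted p = 0.0384. Trpv1 had -1.15 ± 0.30, with adjusted p = 0.0473. In this fit, the CFA response of both channels was thus lower in iKO than in WT. The interaction was not examined under the alternatives or with libraries left out. It uses the WT CFA libraries, which differed most from each other, and WT Veh, the group that stood apart in nuclear RNAs and immediate early genes. For the 4 genes high in iKO CFA they were 2.66 ± 0.40 for Pi16 (adjusted p = 0.00866), 3.81 ± 0.53 for Clec3b (adjusted p = 0.0064), 2.98 ± 0.49 for Sfrp4 (adjusted p = 0.0112) and 3.42 ± 0.64 for Hp (adjusted p = 0.0178). The 4 were chosen for a small p in comparisons that use the same libraries, so their interaction is a description. All 6 values rest on 2 libraries per group.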

How the results depend on the processing

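The count of 3959 genes called, 2050 higher and 1909 lower, was within 1.5 times under RLE scaling (3939), no filter on low counts (3942), edgeR's newer dispersion method (4998) and length offsets (3211). With DESeq2's Wald test 5744 were called, 3063 of them lower. A fit of only the 4 libraries compared called 7990 (3776 higher, 4214 lower), and with both WT CFA libraries left out 8660 were called (3781 higher, 4879 lower). Leaving out 1 library gave 265 to 8609 genes, with 98 to 4103 higher and 167 to 4525 lower. An arm left with 1 library was assumed to vary like the other groups. With replicate number as a block, 3170 genes were called, 3114 of them among the 3959. Correlations of deviations between groups were -0.14 to 0.03, so no pairing by number was seen, though 1 difference per group cannot exclude it. Against all 3 other groups, 0 genes were called in the main analysis. Then 52 were higher and 9 lower with DESeq2, 3 higher with the newer edgeR method, 6 higher without the filter, and 0 to 571 higher and 0 to 1167 lower with 1 library left out, and this test was not run for the 4-library fit or with both WT CFA libraries left out. The share of calls that were higher was 51.8% in the main analysis, 46.4% under RLE scaling and 37.0% without WT Veh replicate 1. No gene called in the main analysis had the other sign under these settings except 20 under length offsets, an alternative chosen after seeing the data. Beyond what the length offsets show, the cause of these shifts was not tested. With 2 libraries per group, differences of genes with few reads were often not detectable at this depth.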
